A study of Mus musculus with 8 samples.

Results

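Amino acid transporters are membrane proteins that carry amino acids into, out of and within the cell. The 10 genes described here were taken by their symbols from the 24303 genes of the deposited table, and all 10 were found. They are Slc7a5 and Slc3a2, which encode the light and heavy chain of the system L transporter, Slc7a6 and Slc7a11, which encode other light chains of the same heavy chain, Slc7a1 for cationic amino acids, Slc1a5 and Slc1a4 for small neutral amino acids, Slc38a1 and Slc38a2 for sodium-coupled uptake of glutamine and alanine, and Slc38a9, which acts at the lysosome. Averaged over the 8 libraries, 9 of them reached 50 normalized counts and Slc7a11 did not.

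RNA was sequenced from mouse P14 CD8 T cells, whose transgenic receptor recognizes GP33, a peptide from lymphocytic choriomeningitis virus. There were 4 conditions with 2 libraries each, labelled as biological replicates, and the libraries were made from polyA RNA. All cells came from spleen and were activated on plates coated with anti-CD3 and anti-CD28 for the first 2 days. Acute-2d cells were given no peptide after day 2 and were collected on day 19. Acute-7d cells were given GP33 again and again until day 7, then rested in medium without peptide, and were collected on day 19. T_Dysf cells, the dysfunctional condition of the study, were given GP33 until they were collected on day 19, and TGFβ1 was added from day 7 on. Effector cells were collected on day 7, and the labels give no agent for them beyond the condition's name. T_Dysf and Acute-7d therefore differ by both peptide and TGFβ1 after day 7, and these cannot be told apart. Effector cells also differ from the other conditions by the day of collection. The cells were cultured throughout, and all carry a receptor of the same specificity. RESUB, a prefix whose meaning the labels do not state, begins the names of Acute-7d replicate 1 and the Effector libraries (both of them).

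The libraries held 22.67 and 22.03 M reads on genes in Effector, 20.38 and 20.21 M in Acute-2d, 19.38 and 20.92 M in Acute-7d, and 24.86 and 24.38 M in T_Dysf. These totals were estimated by dividing each library's total by its most frequent low value above 0, taken as the worth of a single read. A gene at 3 reads, the limit that a count of 0 allows, stood at 2.59 to 3.35 normalized counts depending on the library, which covers counting error only. Slc7a11, the lowest of the 10 genes, was above this limit in every library, at 5.64 normalized counts or more.

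The 10 CD8 T cell markers were all present. Their normalized counts summed to 86849 and 88745 in Effector, 101796 and 100432.5 in Acute-2d, 97426 and 96126 in Acute-7d, and 155168 and 150433 in T_Dysf, with Cd8a the most abundant by its mean over the libraries. Single markers went both ways from Acute-7d to T_Dysf: Cd3e rose by 1.08 on the log2 scale (adjusted p = 0.0134) and Cd3g by 1.27 (adjusted p = 0.0223), while Cd2 fell by 1.31 (adjusted p = 0.00124), from 8379 and 8821 to 3439 and 3478 normalized counts, by limma with Benjamini-Hochberg adjustment. Cd4 lay between 1.01 and 13.04 normalized counts, and the sums of the 4 CD4 T cell markers, from 1058 to 1639, were made up mostly of Zbtb7b. The 8 B and plasma cell markers summed to 202 and 162.5 in Effector, 129.8 and 119.8 in Acute-2d, 64.7 and 75.8 in Acute-7d, and 519 and 576 in T_Dysf. Their most abundant gene by mean was Cd79b, while Mzb1 stayed at 4.01 or less in every library. Jchain reached 236 and 275 in T_Dysf and was at 7.37 or less elsewhere. The 5 NK cell markers summed to 2455 and 1798 in Effector and to 1771 and 1546 in Acute-2d. Their sums were 4547 and 3569 in Acute-7d and 1076.5 and 1753 in T_Dysf, with Eomes the most abundant and Klra4 at 1.08 or less. The 9 myeloid and dendritic cell markers summed to 394 to 1202 with Xcr1 the most abundant by mean and Siglech at 3.03 or less. The 5 erythroid and platelet markers summed to 46.8 to 101 with Hba-a2 the most abundant by mean. By the methods of the study the cells had been sorted as CD8 T cells before RNA was taken, and what part these markers have in the values of the transporters was not tested. In bulk RNA, fewer cells of a type and less RNA per cell cannot be told apart.

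A resting T cell has little need of amino acid import, whereas activated T cells raise it to supply protein synthesis and growth. Leucine enters mainly through the system L heterodimer of Slc7a5 and Slc3a2, and glutamine through Slc1a5 and the Slc38 family. Amino acids inside the cell and the lysosome are sensed by the mTORC1 kinase complex, and a shortage of them raises translation of the transcription factor Atf4, which acts on many transporter genes.

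All genes were fitted together with limma on log2 normalized counts with 1 added, and a gene was called where its fold change was at least 2 and its Benjamini-Hochberg adjusted p over all 24303 genes was under 0.05. T_Dysf was compared with each of the other conditions, Effector with both rested conditions, and Acute-7d with Acute-2d. A further comparison set the conditions collected under stimulation (T_Dysf and Effector) against the rested ones (Acute-2d and Acute-7d), a grouping made here that takes Effector cells as stimulated until day 7. Groups are shared between these comparisons, so their values stand side by side and are not independent.

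Most of the differences among the transporters lay between Effector cells and the other conditions. From Effector to T_Dysf 3 of the 10 genes were called lower, Slc7a5, Slc7a1 and Slc38a2. This is 30.0% of them where 9.22% of all genes were called, and 2 of the 10 had a log2 fold change above 0. Over Acute-2d 3 genes were called higher in Effector, Slc7a5, Slc7a1 and Slc1a4, against 8.78% of all genes called, and 9 of the 10 lay above 0. Over Acute-7d Slc7a5 and Slc7a1 were called higher in Effector, 2 of 10 where 8.06% of all genes were called, and 7 lay above 0. For stimulated over rested conditions only Slc7a5 was called, 1 of the 10 genes where 8.18% of all genes were called. Since 9 of the 10 genes had a mean of at least 50 and many genes of the table did not, these shares were also taken among the 12028 genes that did, tested alone. Of them 18.4% were called between T_Dysf and Effector, 17.7% for Effector over Acute-2d, 16.1% for Effector over Acute-7d and 12.4% for stimulated over rested conditions, beside 4, 3, 2 and 1 of the 9 transporters. When only the libraries of the 2 conditions compared were fitted, limma called 0 of the 10 in each of the comparisons with Effector, where 6 (T_Dysf), 5 (Acute-2d) and 5 (Acute-7d) had an unadjusted p under 0.05, as had 27.1%, 25.7% and 25.6% of all genes, and 1.91%, 0.967% and 0.638% of all genes were called.

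Between T_Dysf and Acute-7d limma called 0 of the 10 transporters, with 5.57% of all genes called, and 3 had an unadjusted p under 0.05, as had 26.1% of all genes. Between T_Dysf and Acute-2d limma called 0 of 10, with 7.35% of all genes called, and again 3 had an unadjusted p under 0.05, as had 27.7% of all genes. Between Acute-7d and Acute-2d limma called 0 of 10 and 0 had an unadjusted p under 0.05, with 0.169% of all genes called and 7.31% under that unadjusted p. Among the 12028 genes with a mean of at least 50, 12.3% were called between T_Dysf and Acute-7d and 40.2% had an unadjusted p under 0.05, and between T_Dysf and Acute-2d 14.1% and 41.9%. The median log2 fold change of the 10 genes was -1.01 from Effector to T_Dysf, 0.77 for Effector over Acute-2d and 0.59 for Effector over Acute-7d, each beside a median of 0.00 over all genes. It was -0.25 for T_Dysf over Acute-7d, -0.16 for T_Dysf over Acute-2d and 0.25 for Acute-7d over Acute-2d, each beside 0.00, and 0.27 for stimulated over rested conditions beside -0.02.

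**Figure D1:**
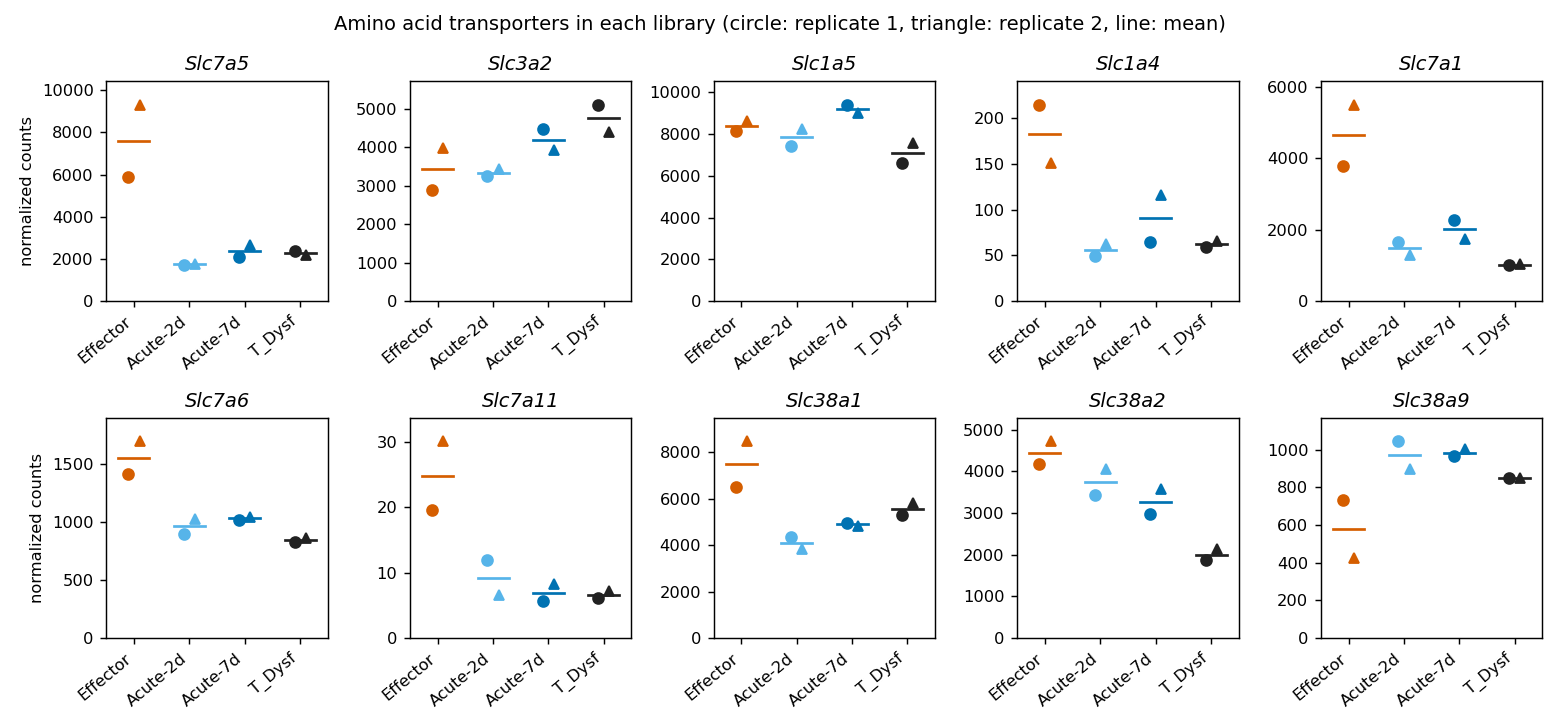
Normalized counts (vertical axes, linear from 0) of each of the 10 transporters in the 8 libraries, by condition, with circles for replicate 1, triangles for replicate 2 and lines for the mean of 2. For Slc7a5, Slc7a1, Slc1a4, Slc7a6, Slc7a11, Slc38a1 and Slc38a2 both Effector libraries lie above all others, as for 14.6% of all genes and 23.1% of those with a mean of at least 50. For Slc38a9 both lie under all others, at 733 and 423, as for 12.7% of all genes and 19.2% of those with a mean of at least 50.

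**Figure D2:**
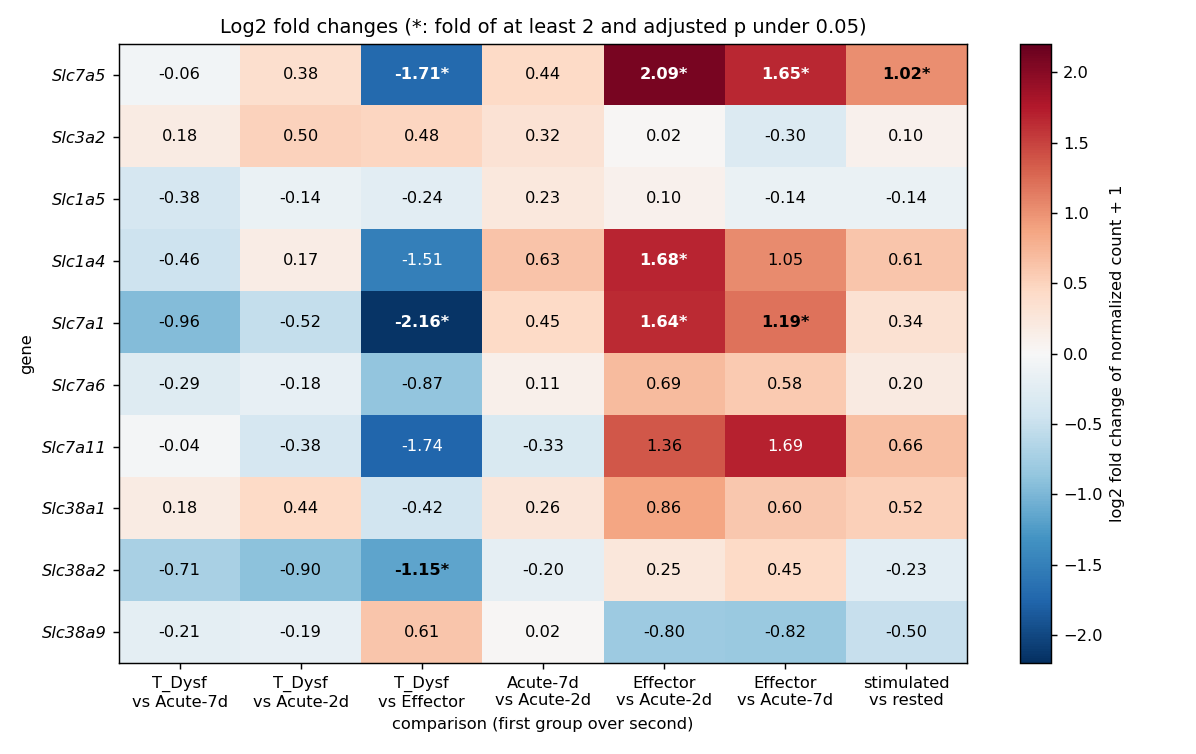
Log2 fold changes of the 10 transporters (vertical axis) in the 7 comparisons (horizontal axis), with the value in each cell, color for its sign and size, and a star for genes that passed the fold and adjusted p thresholds. The stars lie in the 3 comparisons with Effector and, for Slc7a5 at 1.02, in the comparison of stimulated with rested conditions.

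The 250 bases upstream of the RefSeq start were available for 7 of the 10 genes (9 windows, GRCm38.p6). Printed here 5′ to 3′ are those of the called members among them, Slc7a1, Slc1a4 and Slc38a2, and that of Slc7a11, the gene with the most motif matches. Slc7a1 has another window (chr5:148392816-148393065), which holds none of the motifs and is not printed. Both strands were searched for 3 motifs, and capitals mark the matches. The first is the C/EBP-ATF response element TGATGNAA, a sequence that Atf4 is known to bind together with C/EBP factors, which 3.45% of the 32851 windows of all genes hold. The second is the antioxidant response element core TGANNNNGC, known from targets of Nfe2l2, which 35.2% of them hold. The third is the E-box CACGTG, a sequence bound by Myc with Max, which 6.02% of them hold.
Slc7a11 (chr3:50443614-50443863, minus strand): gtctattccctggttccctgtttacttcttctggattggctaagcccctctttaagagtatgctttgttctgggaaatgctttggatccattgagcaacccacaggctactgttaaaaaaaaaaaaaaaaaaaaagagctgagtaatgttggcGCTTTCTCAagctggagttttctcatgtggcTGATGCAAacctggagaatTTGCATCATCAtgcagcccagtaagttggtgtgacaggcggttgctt
Slc7a1 (chr5:148399905-148400154, minus strand): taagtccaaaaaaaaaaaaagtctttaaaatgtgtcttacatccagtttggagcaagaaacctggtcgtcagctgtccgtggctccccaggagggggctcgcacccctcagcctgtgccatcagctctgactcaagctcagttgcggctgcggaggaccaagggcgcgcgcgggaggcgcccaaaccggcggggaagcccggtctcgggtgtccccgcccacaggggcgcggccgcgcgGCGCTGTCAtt
Slc1a4 (chr11:20332714-20332963, minus strand): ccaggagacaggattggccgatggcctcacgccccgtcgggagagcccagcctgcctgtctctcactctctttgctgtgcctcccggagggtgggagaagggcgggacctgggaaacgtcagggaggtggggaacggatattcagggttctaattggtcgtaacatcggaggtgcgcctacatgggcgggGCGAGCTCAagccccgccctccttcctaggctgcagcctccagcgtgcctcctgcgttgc
Slc38a2 (chr15:96699729-96699978, minus strand): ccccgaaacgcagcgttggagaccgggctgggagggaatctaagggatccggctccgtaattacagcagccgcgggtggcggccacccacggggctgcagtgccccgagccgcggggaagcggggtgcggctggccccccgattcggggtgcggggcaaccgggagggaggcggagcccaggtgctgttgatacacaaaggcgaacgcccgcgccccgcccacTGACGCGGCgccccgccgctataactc
In Slc7a11, TGATGNAA was matched at 66 bases upstream of the start on the printed strand and at 47 on the other, and TGANNNNGC at 97 and 45 on the other strand, so that the match at 47 overlaps that at 45. The matches of TGANNNNGC in Slc7a1 at 11 bases and in Slc1a4 at 60 bases lie on the other strand, and that in Slc38a2 at 27 bases on the printed strand. Over the 9 windows of the members, TGATGNAA was found only in that of Slc7a11, TGANNNNGC in those of 6 genes, and CACGTG in 0. A match is a description of the letters and not a site shown to be bound.

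Slc7a5 (chromosome 8, 121881150 to 121907694, GRCm38) encodes LAT1, the light chain that moves leucine and other large neutral amino acids. It had 5911 and 9322 normalized counts in Effector, 1727 and 1761 in Acute-2d, 2111 and 2640.5 in Acute-7d, and 2361 and 2176 in T_Dysf. Both Effector libraries were far above all others, and the libraries of Acute-7d and T_Dysf overlapped, while both Acute-2d libraries were the lowest. From Effector to T_Dysf Slc7a5 fell by 1.71 on the log2 scale (standard error 0.24, adjusted p = 0.0155, limma with Benjamini-Hochberg adjustment), and it was 2.09 higher in Effector than in Acute-2d (adjusted p = 0.0131) and 1.65 higher than in Acute-7d (adjusted p = 0.0212). Between T_Dysf and Acute-7d its log2 fold change was -0.06 (adjusted p = 0.973), less than the spread between replicates. For stimulated over rested conditions it was 1.02 (standard error 0.17, adjusted p = 0.0199), which averages T_Dysf, at 0.38 over Acute-2d and -0.06 over Acute-7d, with Effector, at 2.09 and 1.65. Left out singly, either T_Dysf library ended the call against T_Dysf, where the value then ranged from -2.04 to -1.38 over all 8 omissions. Either Acute-2d library ended it against Acute-2d (1.76 to 2.42), and any Acute-7d or T_Dysf library against Acute-7d (1.32 to 1.98). The call between stimulated and rested conditions was kept only without Effector replicate 1 or Acute-7d replicate 2 (0.85 to 1.18), and ended without Effector replicate 2, Acute-2d replicate 1 or 2, Acute-7d replicate 1, or T_Dysf replicate 1 or 2. It was also not called with equal 75th percentiles or with quantile normalization.

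Within the libraries with the RESUB prefix, Effector replicates 1 and 2 lay 1.49 and 2.14 log2 units above Acute-7d replicate 1 for Slc7a5, and Acute-7d replicate 1 differed from Acute-7d replicate 2, which lacks the prefix, by -0.32. With a term for the prefix, the difference of Slc7a5 was -2.03 from Effector to T_Dysf, 2.41 for Effector over Acute-2d and 1.81 for Effector over Acute-7d, none of them called by limma, and 1.10 for stimulated over rested conditions, which was called. That term rests on the Acute-7d pair alone. It left 0 of the 10 transporters called in each comparison with Effector, where 5 (T_Dysf), 4 (Acute-2d) and 6 (Acute-7d) had an unadjusted p under 0.05, as had 19.0%, 19.6% and 26.1% of all genes. With this term 1.59%, 1.44% and 3.32% of all genes were called, in the same order.

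Slc3a2 (chromosome 19, 8706882 to 8723369) encodes CD98hc, the heavy chain that brings Slc7a5 and the other light chains to the plasma membrane. It had 2904 and 3978 normalized counts in Effector, 3245 and 3441 in Acute-2d, 4467 and 3919.8 in Acute-7d, and 5113 and 4396 in T_Dysf. The order of the means ran from T_Dysf over Acute-7d and Effector to Acute-2d, each overlapping the next, and the highest mean was 1.42 times the lowest. Its log2 fold change was 0.48 from Effector to T_Dysf (adjusted p = 0.144) and 0.02 for Effector over Acute-2d (limma, Benjamini-Hochberg adjusted p of 1), where the sign turned with another scaling of the libraries. The heavy chain was thus not called in any comparison, including those where the light chain was.

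Since the chains form a dimer, their levels were also compared per kilobase of exon, with no test. The length is that of all annotated exons of a gene joined, so ratios between genes depend on it, while those of the same pair can be compared between libraries. The ratio of Slc7a5 to Slc3a2 per kilobase was 1.94 and 2.23 in Effector, 0.507 and 0.487 in Acute-2d, 0.450 and 0.641 in Acute-7d, and 0.440 and 0.471 in T_Dysf. By these lengths the light chain stood above the heavy chain in both Effector libraries and under it in the other 6, where Acute-7d overlapped with Acute-2d and T_Dysf and both Acute-2d libraries lay above both T_Dysf libraries. The means were 2.08 ± 0.207 in Effector and 0.455 ± 0.0224 in T_Dysf (SD, n = 2). Across the 8 libraries the levels of Slc7a5 and Slc3a2 had a Pearson r of -0.20 on the log2 scale (n = 8 libraries that fall into 4 conditions), and this is a description with no test.

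**Figure D3:**
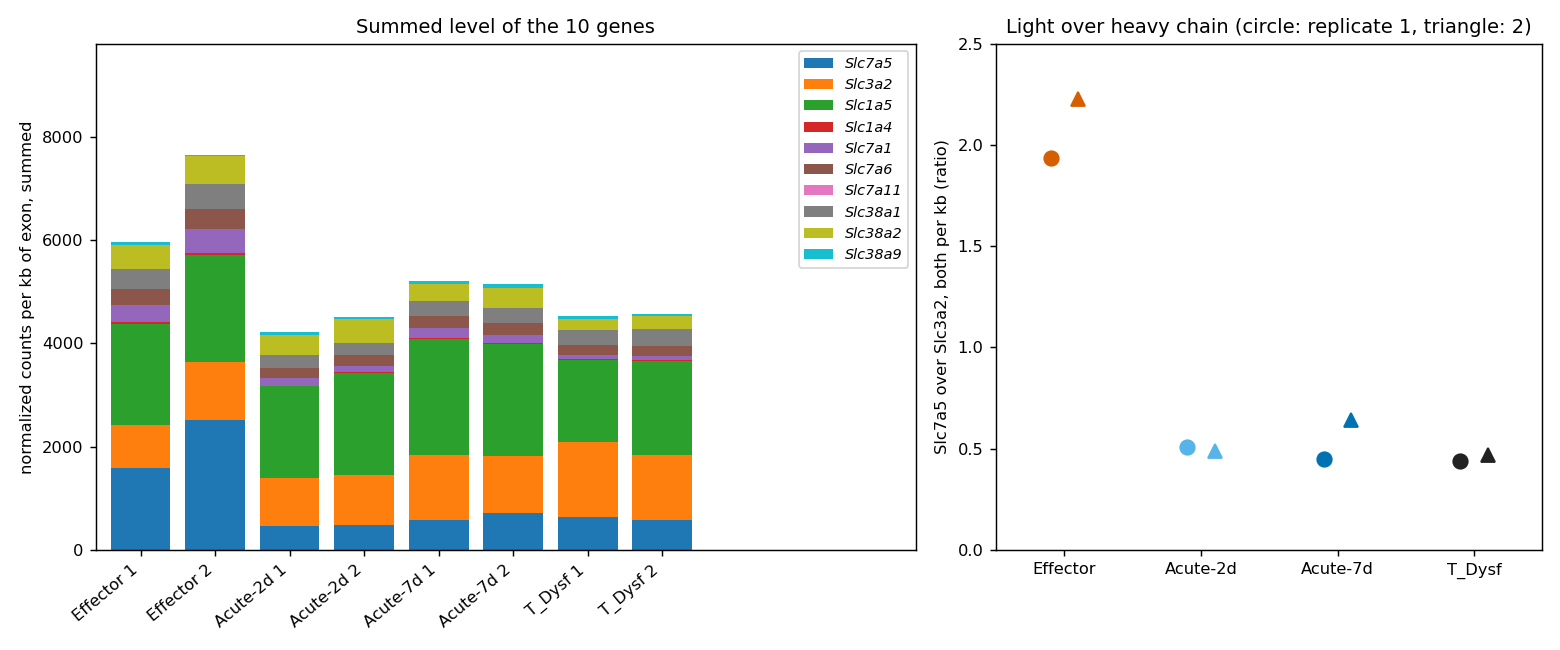
On the left, normalized counts per kilobase of exon of the 10 transporters, stacked for each of the 8 libraries (vertical axis linear from 0); on the right, the ratio of Slc7a5 to Slc3a2 per kilobase in each library, with circles for replicate 1 and triangles for replicate 2. The stacks reach 5955 and 7648 in Effector and 4223 to 5212 in the other 6 libraries, and the ratio lies at 1.94 and 2.23 in Effector and at 0.641 or less elsewhere.

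Slc7a6 (chromosome 8, 106168857 to 106198706) encodes y+LAT2, a light chain that exchanges cationic for neutral amino acids. It had 1413 and 1699 normalized counts in Effector, 894 and 1032 in Acute-2d, 1022 and 1048 in Acute-7d, and 831 and 860.3 in T_Dysf. Effector was the highest and T_Dysf the lowest condition, with no overlap to their neighbours, and the Acute conditions overlapped. Its log2 fold change was -0.87 from Effector to T_Dysf (standard error 0.11, adjusted p = 0.0135), 0.69 for Effector over Acute-2d (adjusted p = 0.0248) and 0.58 for Effector over Acute-7d (adjusted p = 0.0365), all by limma with Benjamini-Hochberg adjustment. Each passed the adjusted threshold but stayed under a fold of 2, with folds of 1.83, 1.61 and 1.497. Within the RESUB libraries, Effector replicates 1 and 2 lay 0.47 and 0.73 above Acute-7d replicate 1. Without Effector replicate 1 the value from Effector to T_Dysf was -1.01 and was called.

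Slc7a11 (chromosome 3, 49892526 to 50443614) encodes xCT, the light chain that imports cystine in exchange for glutamate. It was nearly silent, with 19.5 and 30.1 normalized counts in Effector, 11.9 and 6.52 in Acute-2d, 5.64 and 8.19 in Acute-7d, and 6.04 and 7.15 in T_Dysf. Both Effector libraries were the highest, and the other 3 conditions overlapped. The log2 fold change was -1.74 from Effector to T_Dysf (standard error 0.45, adjusted p = 0.0656), 1.36 for Effector over Acute-2d (adjusted p = 0.113) and 1.69 for Effector over Acute-7d (adjusted p = 0.0702), so none passed limma's test with Benjamini-Hochberg adjustment. With 10 in place of 1 added before the logarithm, it was called against T_Dysf and Acute-7d. The log2 fold changes were then smaller, at -1.05 from Effector to T_Dysf and 1.03 for Effector over Acute-7d.

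Slc7a1 (chromosome 5, 148327410 to 148399904) encodes CAT-1, the main carrier of arginine and lysine into activated T cells. It had 3794 and 5504 normalized counts in Effector, 1653 and 1299.8 in Acute-2d, 2280.45 and 1748 in Acute-7d, and 1012 and 1036 in T_Dysf. Its 4 conditions did not overlap, in the order Effector, Acute-7d, Acute-2d and T_Dysf, and the highest mean was 4.54 times the lowest. Slc7a1 fell by 2.16 on the log2 scale from Effector to T_Dysf (standard error 0.24, adjusted p = 0.0100), the largest difference among the 10 genes in any comparison, and rose by 1.64 from Acute-2d (adjusted p = 0.0200) and 1.19 from Acute-7d (adjusted p = 0.0383) to Effector, by limma with Benjamini-Hochberg adjustment. Between T_Dysf and Acute-7d it was -0.96 (adjusted p = 0.0812), a fold of 1.95 that did not pass. With quantile normalization it was the only member called there.

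The fall of Slc7a1 to T_Dysf was not called without T_Dysf replicate 1, and the value ran from -2.42 to -1.89 over the 8 omissions. Its rise over Acute-2d was not called without Effector replicate 2, either Acute-2d library or either T_Dysf library (1.37 to 1.91). Its rise over Acute-7d was called only without Effector replicate 1 and was lost without Effector replicate 2 or any 1 of the Acute-2d, Acute-7d and T_Dysf libraries (0.93 to 1.46). It was also lost with the replicate number as a block (adjusted p = 0.0733, limma with Benjamini-Hochberg adjustment). Within the RESUB libraries, Effector replicates 1 and 2 lay 0.73 and 1.27 above Acute-7d replicate 1 for Slc7a1, and Acute-7d replicate 1 lay 0.38 above Acute-7d replicate 2. With the term for the prefix the differences were -1.77, 1.26 and 1.002, in the same order of comparisons, and were not called.

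Slc1a5 (chromosome 7, 16781340 to 16798274) encodes ASCT2, a sodium-dependent exchanger for glutamine and other neutral amino acids. It had 8139.98 and 8619 normalized counts in Effector, 7429 and 8259 in Acute-2d, 9411 and 9029.6 in Acute-7d, and 6628 and 7596 in T_Dysf. This was the flattest of the 10 genes, with the highest mean 1.30 times the lowest, and only Acute-7d lay clear of its neighbour Effector. T_Dysf lay under Acute-7d by a log2 fold change of -0.38 (standard error 0.10, limma with Benjamini-Hochberg adjusted p = 0.0868, unadjusted p = 0.0122), which did not pass.

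Slc1a4 (chromosome 11, 20302180 to 20332713) encodes ASCT1, an exchanger for alanine, serine and cysteine. It had 215 and 151 normalized counts in Effector, 49.5 and 62.6 in Acute-2d, 64.7 and 116 in Acute-7d, and 59.6 and 65.8 in T_Dysf. Effector was the highest condition, T_Dysf overlapped with both Acute conditions, and both Acute-7d libraries lay above both Acute-2d libraries. Slc1a4 rose by 1.68 on the log2 scale from Acute-2d to Effector (standard error 0.35, adjusted p = 0.0405), and was at -1.51 from Effector to T_Dysf (adjusted p = 0.0513) and 1.05 for Effector over Acute-7d (adjusted p = 0.122), by limma with Benjamini-Hochberg adjustment. The call over Acute-2d rested on several libraries: it was kept only without either Acute-7d library and lost without either library of Effector, Acute-2d or T_Dysf (1.43 to 1.93), and with the replicate number as a block (adjusted p = 0.0690). With the term for the RESUB prefix it was 2.51, outside that range, and not called. Where only genes that reached 50 (by mean or by maximum) were tested, or where either Acute-7d library was left out, it was also called between Effector and T_Dysf, at -1.51. Within the RESUB libraries, Effector replicates 1 and 2 lay 1.72 and 1.21 above Acute-7d replicate 1, and Acute-7d replicate 1 differed from replicate 2 by -0.83.

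Slc38a1 (chromosome 15, 96571418 to 96642913) encodes SNAT1, a sodium-coupled carrier of glutamine. It had 6492 and 8481 normalized counts in Effector, 4358 and 3836 in Acute-2d, 4973 and 4822 in Acute-7d, and 5298 and 5809 in T_Dysf. The conditions did not overlap, in the order Effector, T_Dysf, Acute-7d and Acute-2d, with the highest mean 1.83 times the lowest. Its log2 fold change was 0.86 for Effector over Acute-2d (standard error 0.15, adjusted p = 0.0273) and 0.52 for stimulated over rested conditions (standard error 0.11, adjusted p = 0.0315), which passed the adjusted threshold of limma's test with Benjamini-Hochberg adjustment at folds of 1.81 and 1.43, under 2. For T_Dysf over Acute-2d it was 0.44 (adjusted p = 0.139). Without Effector replicate 1, Slc38a1 was called for Effector over Acute-2d, at 1.05.

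Slc38a2 (chromosome 15, 96687392 to 96699730), near Slc38a1 on the same chromosome, encodes SNAT2, a sodium-coupled carrier known to be raised when amino acids are short. It had 4179.6 and 4720.1 normalized counts in Effector, 3441 and 4061 in Acute-2d, 2978 and 3571.5 in Acute-7d, and 1868 and 2133 in T_Dysf. Both T_Dysf libraries were under all others, Effector was the highest, and the Acute conditions overlapped. Slc38a2 fell by 1.15 on the log2 scale from Effector to T_Dysf (standard error 0.14, adjusted p = 0.0125), and lay at -0.90 for T_Dysf over Acute-2d (adjusted p = 0.0238, a fold of 1.87) and -0.71 for T_Dysf over Acute-7d (adjusted p = 0.0510), by limma with Benjamini-Hochberg adjustment. The call against Effector ended without Effector replicate 2 or T_Dysf replicate 1 (-1.25 to -1.06 over the 8 omissions), and the value was -1.42, not called, with the term for the RESUB prefix. Within the RESUB libraries Effector replicates 1 and 2 lay 0.49 and 0.66 above Acute-7d replicate 1.

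These nearby genes thus took different orders. The ratio of Slc38a1 to Slc38a2 per kilobase of exon was 1.43 ± 0.0410 in T_Dysf, 0.859 ± 0.0883 in Effector, 0.774 ± 0.116 in Acute-7d and 0.567 ± 0.117 in Acute-2d (SD, n = 2). The ratio was highest in T_Dysf, and no test was made of it. Which of the genes stands higher depends on the lengths used: in normalized counts Slc38a1 was above Slc38a2 in every library but Acute-2d replicate 2.

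Slc38a9 (chromosome 13, 112660751 to 112738749) encodes a lysosomal transporter that senses arginine for mTORC1. It had 733 and 423 normalized counts in Effector, 1045 and 897 in Acute-2d, 966 and 1003 in Acute-7d, and 849 and 849.6 in T_Dysf. It was the only one of the 10 genes with its lowest mean in Effector, whose libraries differed by a fold of 1.73, and the Acute conditions overlapped. The log2 fold change was -0.80 for Effector over Acute-2d (adjusted p = 0.116), -0.82 for Effector over Acute-7d (adjusted p = 0.112) and 0.61 from Effector to T_Dysf (adjusted p = 0.198), none past limma's test with Benjamini-Hochberg adjustment. Within the RESUB libraries, Effector replicates 1 and 2 differed from Acute-7d replicate 1 by -0.40 and -1.19. Without Effector replicate 1, Slc38a9 was called in all 3 comparisons with Effector, at -1.19 over Acute-2d, -1.215 over Acute-7d and 1.002 from Effector to T_Dysf, and without Effector replicate 2 the values were -0.40, -0.425 and 0.21, not called.

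Per kilobase of exon, and as a mean over the 8 libraries, the levels of the 10 genes ran from 1950.4 normalized counts for Slc1a5 over 1114 for Slc3a2, 944 for Slc7a5, 381 for Slc38a2, 319.6 for Slc38a1, 241 for Slc7a6, 199 for Slc7a1, 50.6 for Slc38a9 and 25.0 for Slc1a4 to 0.853 for Slc7a11. Slc1a5 had the highest level per kilobase in 7 libraries, with 32.8% to 43.8% of the sum of the 10 genes, and Slc7a5 in Effector replicate 2, with 32.9%. The sums per kilobase were 5955 and 7648 in Effector, 4223 and 4519.6 in Acute-2d, 5212 and 5142 in Acute-7d, and 4529 and 4577 in T_Dysf. The conditions did not overlap in this sum, in the order Effector, Acute-7d, T_Dysf and Acute-2d. The share of Slc7a5 in this sum was 26.8% and 32.9% in Effector and 10.5% to 14.1% in the other 6 libraries. The 10 genes together took 0.163% and 0.194% of all normalized counts in Effector, 0.111% and 0.113% in Acute-2d, 0.131% and 0.132% in Acute-7d, and 0.112% and 0.115% in T_Dysf.

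Across the 8 libraries, which fall into 4 conditions and share their scaling, the closest pairs among the members were Slc7a1 with Slc7a6 (Pearson r of 0.948 on the log2 scale), Slc7a5 with Slc7a6 (0.914) and Slc7a5 with Slc38a1 (0.908). Slc38a9 ran against Slc7a5, with an r of -0.896, and Slc3a2 against Slc38a2, with -0.741. These are descriptions over n = 8 libraries with no test.

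Among 8087 genes with a mean of at least 50 normalized counts and a highest condition at least 1.5 times the lowest, the pattern most like that of Slc7a5 over the 8 libraries was that of Syncrip (r = 0.993), followed by Pkmyt1 and Shmt1. Syncrip had 5195 and 7391 normalized counts in Effector and 2408 to 3301 in the other 6 libraries. The pattern most like that of Slc7a1 was that of Rpusd2 (r = 0.999), followed by Nom1 and Ccdc86, with 287 and 375 in Effector and 131 and 134 in T_Dysf for Rpusd2. For Slc7a6 these were Dclre1b (r = 0.996), Srm and Gar1, for Slc38a1 Lnpk (r = 0.989), Gm10282 and E130309D02Rik, and for Slc38a2 Gypc (r = 0.992), Abtb2 and Synj2. Gypc had 544 and 661 normalized counts in Effector and 179 and 205 in T_Dysf. For Slc38a9 they were Firre (r = 0.989), Heca and Csf2ra, and for Slc1a4 Nrgn (r = 0.957), Arhgap21 and Mid1ip1. For Slc1a5 they were Gm4972 (r = 0.969), Rnf43 and Slc26a10, and for Slc3a2 Slc4a1ap (r = 0.930), Gfod1 and Txk. With 4 conditions in 8 libraries such values are reached easily, and they were not tested.

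Among 32 other amino acid transporters in the table, 13 had a mean of at least 50. Between T_Dysf and Acute-7d 1 was called higher and 1 lower, where 5.57% of all genes were called. The median log2 fold change over the 32 was 0.11 beside 0.00 over all genes. Over the 13 it was 0.34 beside 0.02 over all genes with a mean of at least 50. Slc16a10, a carrier of aromatic amino acids, had 148 and 120.4 normalized counts in Effector, 16.9 and 25.9 in Acute-2d, 45.7 and 65.6 in Acute-7d, and 939 and 1286 in T_Dysf. Both T_Dysf libraries were far above all others, with a log2 fold change of 4.30 over Acute-7d (standard error 0.32, adjusted p = 0.00513, limma with Benjamini-Hochberg adjustment). Slc6a19, a sodium-coupled carrier of neutral amino acids, had 59.4 and 138 normalized counts in Effector, 501 and 484 in Acute-2d, 74.8 and 106 in Acute-7d, and 1.73 and 0.890 in T_Dysf. It was under 3 reads in both T_Dysf libraries and highest in Acute-2d. For stimulated over rested conditions 2 of the 32 were called higher and 2 lower, where 8.18% of all genes were called. Slc16a10 was at 3.46 and Slc6a19 at -3.87, a value that depends on the 1 added before the logarithm.

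Among 39 genes of mTORC1 and its amino acid sensors, 37 had a mean of at least 50. In T_Dysf over Acute-7d 1 was called higher and 0 lower, with a median of 0.15, where 5.57% of all genes were called. Of genes with a mean of at least 50, tested alone, 12.3% were called. The called sensor gene was Castor2, which had 631 and 621 normalized counts in Acute-7d and 1224 and 1348 in T_Dysf (log2 fold change 1.03, limma with Benjamini-Hochberg adjusted p = 0.0139). The Castor proteins are known as arginine sensors in the cytosol, whereas Slc38a9 senses it at the lysosome. For stimulated over rested conditions 0 of the 39 were called higher and 1 lower by limma, with a median of 0.12 beside -0.02 over all genes. Called there were 8.18% of all genes, and 12.4% of those with a mean of at least 50, tested alone.

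Among 28 genes of Atf4 and the amino acid response, 26 had a mean of at least 50. Limma called 0 higher and 2 lower in T_Dysf than in Acute-7d, where 5.57% of all genes were called. The median was -0.02 over the 28 genes and 0.06 over the 26. In stimulated over rested conditions 3 were called higher and 3 lower, where 8.18% of all genes were called. The median there was 0.31 over the 28 genes and 0.23 over the 26. Of genes with a mean of at least 50, tested alone, 12.3% and 12.4% were called. Atf4 itself had 5449 and 4949.8 normalized counts in Effector, 4414 and 5219.5 in Acute-2d, 5430.1 and 4939.8 in Acute-7d, and 4088 and 4276 in T_Dysf, and was not called in any comparison. Vldlr had 72.5 and 99.97 normalized counts in Acute-7d and 0 and 0.890 in T_Dysf, under 3 reads, and 795 and 1010.5 in Acute-2d. Stc2 fell by 2.86 on the log2 scale from Acute-7d to T_Dysf (adjusted p = 0.0114, limma with Benjamini-Hochberg adjustment), from 2968 and 2022.5 to 290.04 and 389. Psat1, an enzyme of serine synthesis, had 3172 and 4645 normalized counts in Effector and 735 to 1309.5 in the other 6 libraries, and was 1.35 higher in stimulated than in rested conditions (adjusted p = 0.0109, limma with Benjamini-Hochberg adjustment). Eif2ak2 was 1.55 higher there, with 1998 and 2808 in Effector, 1052 and 1067 in T_Dysf, 618 and 418 in Acute-2d, and 688 and 486 in Acute-7d. For T_Dysf over Acute-7d it was at 0.87 and not called.

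Of 20 cytosolic aminoacyl-tRNA synthetases, which load amino acids onto tRNA, limma called 0 between T_Dysf and Acute-7d, where 4 had an unadjusted p under 0.05 and the median log2 fold change was 0.04. Of all genes 5.57% were called there and 26.1% had such a p. Of genes with a mean of at least 50, tested alone, the shares were 12.3% and 40.2%. Over Acute-7d 3 were called higher in Effector and 0 lower, with a median of 0.62, and over Acute-2d 4 were higher and 0 lower, with a median of 0.80. These counts are from the fit of all genes, where 8.06% and 8.78% of all genes were called. Of genes with a mean of at least 50, as all 20 had, 16.1% and 17.7% were called in a separate fit of such genes alone. From Effector to T_Dysf 2 were called lower and 0 higher, with a median of -0.71 beside 0.00 over all genes. Of the 20, 1 had a log2 fold change above 0. Called there were 9.22% of all genes, and 18.4% of those with a mean of at least 50, tested alone.

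Of 29 genes for the use of glutamine, branched-chain amino acids, arginine and cysteine, 24 had a mean of at least 50. In T_Dysf over Acute-7d 1 was called higher and 1 lower (median -0.08), where 5.57% of all genes were called. In stimulated over rested conditions 3 were called higher and 1 lower (median 0.19), where 8.18% of all genes were called. The shares of genes with a mean of at least 50, tested alone, were 12.3% and 12.4%. Gclm, a subunit of the enzyme that begins glutathione synthesis, had 751 and 697 normalized counts in Acute-7d and 2387 and 2198.5 in T_Dysf, a log2 fold change of 1.66 (adjusted p = 0.0183, limma with Benjamini-Hochberg adjustment), while Slc7a11, which brings in cystine for this pathway, stood at 8.19 or less in both conditions. Ass1, which makes the precursor of arginine from citrulline, fell by 2.49 on the log2 scale between these conditions (adjusted p = 0.0149, limma with Benjamini-Hochberg adjustment), from 547 and 664 to 109 and 104. Bcat1, which begins the breakdown of branched-chain amino acids, had 661 and 941 normalized counts in Effector and 69.1 to 138 in the other 6 libraries, and was 1.88 higher in stimulated than in rested conditions. Shmt1 was 1.46 higher there, with 1110.6 and 1968 in Effector and 327 and 254 in T_Dysf beside 261 and 275 in Acute-7d.

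Of 14 candidate regulators, 1 was called higher and 2 lower in T_Dysf than in Acute-7d, with a median of -0.21 beside 0.00 over all genes. In that comparison 5.57% of all genes were called, and 12.3% of those with a mean of at least 50 (as all 14 had), tested alone. Myc, a transcription factor known to act on transporter genes in activated T cells, had 5540.3 and 6009 normalized counts in Effector, 15615 and 15287 in Acute-2d, 17721 and 11335 in Acute-7d, and 4537 and 4227.5 in T_Dysf. Its libraries were lower in both stimulated conditions than in both rested ones, with a log2 fold change of -1.56 (adjusted p = 0.00676, limma with Benjamini-Hochberg adjustment). What part Myc has in the levels of the transporters was not tested. Bach2, a repressor, had 1515 and 1552 normalized counts in Acute-7d and 62.1 and 82.7 in T_Dysf, a log2 fold change of -4.40, and Mxd1, a partner of Max, was 1.31 higher in T_Dysf than in Acute-7d. Nedd4l, a ubiquitin ligase, was at -1.26 for stimulated over rested conditions. It had 97.8 and 137 normalized counts in Effector, 463 and 558 in Acute-2d, 351 and 334 in Acute-7d, and 246 and 271 in T_Dysf. For T_Dysf over Acute-7d it was at -0.41 and not called, and from Effector to T_Dysf it was called 1.15 higher.

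The sum of the 18 proliferation genes was highest in Effector, as were 7 of the transporters, all but Slc3a2, Slc1a5 and Slc38a9. The genes summed to 82980.4 and 144887 normalized counts in Effector, 23236.5 and 20178 in Acute-2d, 14707 and 25429 in Acute-7d, and 45600.4 and 41796 in T_Dysf, with Mki67 the most abundant by mean. Over Acute-7d 17 of 18 were called higher in Effector (median 3.13, with 8.06% of all genes called), over Acute-2d 13 of 18 (median 2.86, with 8.78%), and for stimulated over rested conditions 16 of 18 (median 2.27, with 8.18%), among them Rrm2, Ccnb1, Ccnb2 and Ccna2. From Effector to T_Dysf 2 of 18 were called lower, with a median of -1.35, and 0 of 18 had a log2 fold change above 0. Called there were 9.22% of all genes, and 18.4% of those with a mean of at least 50 (as all 18 had), tested alone. Between T_Dysf and Acute-7d limma called 0 of 18, where the median was 1.80 and 12 had an unadjusted p under 0.05. Of all genes 5.57% were called there and 26.1% had such a p. Of those with a mean of at least 50, tested alone, the shares were 12.3% and 40.2%. Between T_Dysf and Acute-2d limma called 0 of 18, where the median was 1.44 and 6 had an unadjusted p under 0.05. The shares there were 7.35% and 27.7% of all genes, and 14.1% and 41.9% of those with a mean of at least 50. What part cell division has in the levels of the transporters was not tested.

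**Figure D4:**
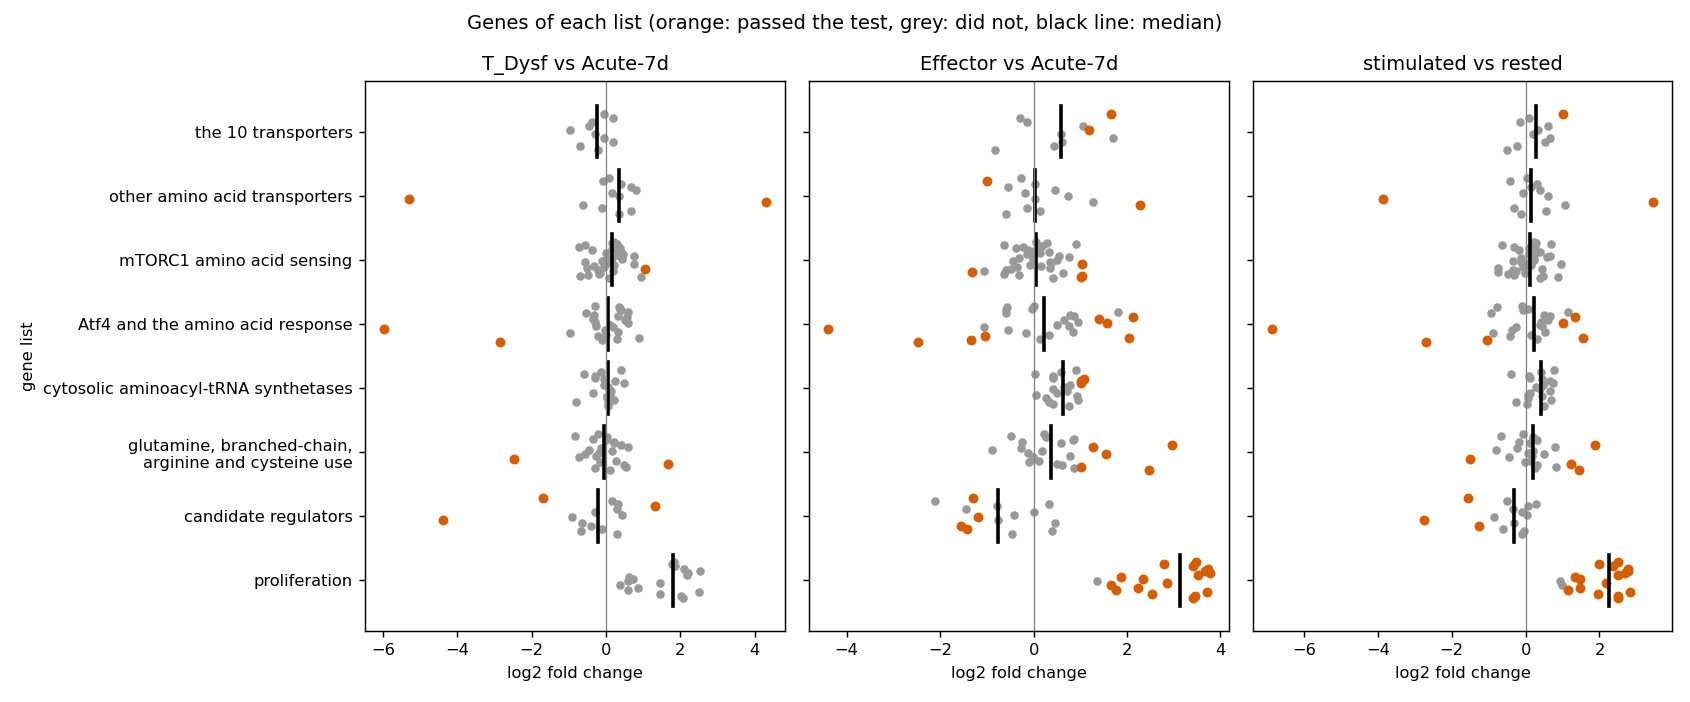
Log2 fold changes (horizontal axes) of the 10 transporters and of the genes with a mean of at least 50 normalized counts in each list (vertical axis), for T_Dysf over Acute-7d, Effector over Acute-7d and stimulated over rested conditions, with genes that passed the test in orange, the others in grey and the median as a black line. The transporters have medians of -0.25, 0.59 and 0.27, and the proliferation genes 1.80, 3.13 and 2.27.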

How the data were processed

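The deposited table holds 24303 genes in 8 libraries. Its signal is estimated counts that the authors made by aligning reads to mm10 with STAR, counting RefSeq transcripts in Partek Flow and scaling with DESeq2 median ratios; they are called normalized counts here, and integer counts were not recovered. Reads per library were estimated by taking its most frequent low value as the worth of a single read. Of the values under 1000 reads, 57.9% (T_Dysf replicate 1) to 77.9% lay within 0.05 reads of a whole multiple of it. The floor of 3 reads covers counting error only.

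Values were taken as log2 of the normalized count plus 1 and tested in 1 fit of 8 libraries with limma 3.58.1 (R 4.3.3; lmFit and eBayes with trend, 4 residual degrees of freedom), two-sided, with Benjamini-Hochberg adjustment over all genes. Called genes had an adjusted p under 0.05 and differed 2-fold or more. Python 3.11.15 with pandas 2.3.3, numpy 2.4.6 and matplotlib 3.10.9 made the tables and plots. The script was tested on simulated data with known fold changes, a large part of which was not recovered, so a count of 0 does not show that values did not differ; a few unchanged genes were called. This test was set to fail on a wrong direction or a biased size only, not on the share recovered or on false calls, after an earlier form of it had failed. Exon lengths and positions came from GENCODE vM21 and windows upstream of starts from RefSeq, both GRCm38.

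Named were the 10 transporters; in each list and for each of T_Dysf over Acute-7d and stimulated over rested conditions, up to 4 called genes with a mean of at least 50 and the largest fold changes; Myc and Atf4; and for each transporter with a mean of at least 50 the 3 genes with the highest Pearson r. Cell type markers named outside this rule were chosen after their values were seen. The members and lists were chosen with earlier results of these data known. Replicate numbers were not taken as pairs, since replicate differences correlated from -0.199 to 0.197 between conditions and only 2 of 6 pairs of conditions were over 0.1. Alternatives were a pseudocount of 0.1 or 10, genes with a mean or maximum of at least 50, 3 other scalings, 2 groups at a time, a replicate block, a term for the RESUB prefix, no fold minimum and leaving out each library.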

Additional observations from a re-analysis of the deposited data

How the results depend on the processing

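Each alternative was run once with the other choices kept, and the cause of a move was not tested. Of the log2 fold changes of single transporters, under all alternatives but no fold minimum, 1154 kept their sign and side of the threshold, 55 no longer passed, 12 newly passed and 15 changed sign. Those that changed sign were small. Slc3a2 for Effector over Acute-2d was -0.0718 with equal 75th percentiles, -0.0410 with quantile normalization, -0.16 with the RESUB term, -0.0176 without Acute-2d replicate 1, and -0.20 to 0.25 over all omissions (lowest without Effector replicate 2); for stimulated over rested conditions it ran from -0.0111 (without Effector replicate 2) to 0.22. Slc7a11 for T_Dysf over Acute-7d was 0.26 with quantile normalization, 0.0610 without T_Dysf replicate 1 and -0.28 to 0.19 over all omissions (highest without Acute-7d replicate 2). Without Acute-2d replicate 1 it was at its highest for T_Dysf over Acute-2d (-0.76 to 0.0103) and for Acute-7d over Acute-2d (-0.72 to 0.0549). Slc7a5 for T_Dysf over Acute-7d was 0.000128 without T_Dysf replicate 2 and -0.22 to 0.10 over all omissions (highest without Acute-7d replicate 2), and Slc38a9 for Acute-7d over Acute-2d was -0.00289 without Acute-7d replicate 2 and -0.0860 to 0.13 over all omissions (lowest without Acute-2d replicate 2). Members called moved as follows. With only the 2 groups compared limma called 0 against Effector in T_Dysf, Acute-2d and Acute-7d (6, 5 and 5 at an unadjusted p under 0.05), and this fit gives nothing for stimulated over rested conditions. With the RESUB term it called 0, 0 and 0 (5, 4 and 6 unadjusted). With the replicate block, which pairs libraries by number, 1 was called for Effector over Acute-7d and 2 over Acute-2d. For stimulated over rested conditions limma called 0 with equal 75th percentiles (5 unadjusted) and 0 with quantile normalization (6 unadjusted), which called 1 for T_Dysf over Acute-7d. With no fold minimum 1 was called for T_Dysf over Acute-2d, 4 for T_Dysf against Effector, 5 for Effector over Acute-2d, 3 over Acute-7d and 2 for stimulated over rested conditions. A pseudocount of 10 gave 4 for T_Dysf against Effector and 3 for Effector over Acute-7d, and genes with a mean or maximum of 50 or more gave 4 for T_Dysf against Effector. Leaving out 1 library, which leaves a group of 1 assumed to vary like the others, gave 0 to 5 for T_Dysf against Effector, 0 to 4 for Effector over Acute-2d, 0 to 3 over Acute-7d and 0 to 1 for stimulated over rested conditions. Over all genes, calls for T_Dysf against Effector went from 2241 to 465 with 2 groups only and 386 with the RESUB term, for Effector over Acute-2d from 2135 to 235 and 350, and over Acute-7d from 1958 to 155 and 808. For T_Dysf over Acute-7d they went from 1353 to 541 with the RESUB term and 891 with the replicate block. For Acute-7d over Acute-2d they went from 41 to 147 with 2 groups only, 168 with the RESUB term, 81 and 4 with a pseudocount of 0.1 and 10, 1 with genes of at least 50 and 8 with quantile normalization, of which 6 were higher, in place of 19 of 41. Of the 168 with the RESUB term 133 were higher, and of the 147 with 2 groups only 57 were. Leaving out 1 library gave 422 to 1534 for T_Dysf over Acute-7d, 656 to 1867 over Acute-2d (1787 with all), 585 to 2484 over Effector, 61 to 376 for Acute-7d over Acute-2d, 553 to 2363 for Effector over Acute-2d, 378 to 2156 over Acute-7d and 954 to 1895 for stimulated over rested conditions (1989 with all). With no fold minimum the totals were 2238, 2882 and 3787 for T_Dysf over Acute-7d, Acute-2d and Effector, 3821 and 3613 for Effector over Acute-2d and Acute-7d, and 4853 for stimulated over rested conditions. Equal 75th percentiles moved the median of genes with a mean of at least 50 for Effector over Acute-7d from 0.02 to -0.09.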
